A study of Mus musculus with 6 samples.

Results

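The miRNAs described here are encoded inside the Hox gene clusters and belong to the miR-10 and miR-196 families. They were the rows of the deposited table whose names begin with mmu-miR-10a-, mmu-miR-10b-, mmu-miR-196a- or mmu-miR-196b-, and there were 5 of them among 810 miRNAs. They are mmu-miR-10a-5p, mmu-miR-10a-3p, mmu-miR-10b-5p, mmu-miR-196a-5p and mmu-miR-196b-5p. Small RNA was sequenced from small extracellular vesicles (sEV), membrane particles that cells release, which were collected from the medium of cochlear explants. The explants were sensory epithelia of ICR mice at postnatal day 3, dissected free of the spiral ganglion, and each library held the sEV of about 80 of them. The 3 Cis-sEV libraries came from explants given 50 µM cisplatin for 48 h, and the 3 Ctrl-sEV libraries from explants given an equal volume of PBS. The explants first recovered overnight in medium with fetal bovine serum and were washed with PBS. During the 48 h of treatment all were kept in medium with fetal bovine serum free of sEV, and the labels give no engineered allele in either group. Each library pooled many explants, so differences between single animals or between cell types of the explant cannot be told apart in it.

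Hox genes encode transcription factors that give cells their position along the head-to-tail axis, and each Hox cluster also carries miRNA genes. The miR-10 genes sit beside the Hox4 group, and the miR-196 genes sit among the Hox genes of the posterior trunk and hind limb, whose mRNAs, Hoxb8 among them, miR-196 is known to repress. A miRNA pairs with its targets mainly through its seed, bases 2 to 8 from the 5′ end. One arm of the hairpin precursor, the guide, is usually kept and the other arm, the passenger, is usually lost.

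The mature sequences show why the members fall into pairs that counting can mix up. Capitals mark the seed, positions are counted from 1 at the 5′ end, and the sequences are those of the deposited table, identical to the RefSeq entries on GRCm38.p6.
mmu-miR-10a-5p: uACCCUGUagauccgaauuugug
mmu-miR-10b-5p: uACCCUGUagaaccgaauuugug
mmu-miR-196a-5p: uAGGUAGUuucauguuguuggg
mmu-miR-196b-5p: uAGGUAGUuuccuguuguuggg
The miR-10 guide arms shared the seed ACCCUGU and differed by the single substitution U12A, from mmu-miR-10a-5p to mmu-miR-10b-5p. The miR-196 guide arms shared the seed AGGUAGU and differed by A12C, from mmu-miR-196a-5p to mmu-miR-196b-5p. No other row of the table had either seed. A read with an error at position 12, or one that ends before it, cannot be placed within a pair, so the split inside each pair is less certain than its sum.

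Relatives of miR-10 with a similar sequence are the guide arms of miR-99 and miR-100, whose seed differs from that of miR-10.
mmu-miR-99a-5p: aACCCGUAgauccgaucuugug
mmu-miR-99b-5p: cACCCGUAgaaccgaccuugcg
mmu-miR-100-5p: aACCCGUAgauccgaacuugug
These 3 shared the seed ACCCGUA. mmu-miR-10a-5p was 3 single-base edits (substitutions, insertions or deletions) from mmu-miR-100-5p and 4 from mmu-miR-99a-5p, and mmu-miR-10b-5p was 5 from mmu-miR-99b-5p.

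The 5 miRNA genes behind these rows lie in all 4 Hox clusters (coordinates of the hairpins on GRCm38.p6, overlaps from GENCODE M21). Mir10a, at chr11:96317165-96317274 on the plus strand, lay between Hoxb5 and Hoxb4, 993 bases from Hoxb4 and in no other annotated gene. Mir10b, at chr2:74726070-74726137 on the plus strand, lay inside Hoxd3 and Hoxd4 but in no exon of either. Mir196a-1, at chr11:96265164-96265265 on the plus strand, was intergenic, 6192 bases from Hoxb9. Mir196a-2, at chr15:102973350-102973434 on the plus strand, lay between Hoxc10 and Hoxc9, in an intron of a long Hoxc5 transcript. Mir196b, at chr6:52230081-52230165 on the minus strand, lay in an annotated exon of Hoxa9. mmu-miR-196a-5p is made from both Mir196a-1 and Mir196a-2, so its reads cannot be assigned to the HoxB or the HoxC cluster.

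The Cis-sEV libraries held 1722359 to 1794175 miRNA reads each and the Ctrl-sEV libraries 528952 to 718597. Levels are given as CPM, the reads of a miRNA for each 1000000 miRNA reads of its library. Since a count of 0 allows up to 3 reads, the limit of detection was 1.67 to 1.74 CPM across Cis-sEV and 4.17 to 5.67 CPM across Ctrl-sEV. Intervals and these limits cover counting error only, because copies made by PCR were not told apart. The hair cell miRNAs of the miR-183 cluster, which mark the sensory epithelium, were all 3 present, and their sum ran from 59070 to 81520 CPM in Cis-sEV and from 54980 to 55760 CPM in Ctrl-sEV.

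The Hox-cluster miRNAs were a trace of the sEV miRNA in both groups. Their 5 rows took 90, 123 and 242 reads in Cis-sEV replicates 1, 2 and 3, and 120, 61 and 269 in the same replicates of Ctrl-sEV. As a share of all miRNA reads this was 0.00502%, 0.00714% and 0.0135% in Cis-sEV (mean 0.00855 ± 0.0044%, SD, n = 3) and 0.0222%, 0.00849% and 0.0509% in Ctrl-sEV (mean 0.0272 ± 0.022%, SD, n = 3). Ctrl-sEV replicate 3 set much of the higher mean, and the difference of -0.0186 percentage points was -0.0068 without it. The highest Cis-sEV library lay above the lowest Ctrl-sEV library, so the groups overlapped. By mean CPM, mmu-miR-10a-5p held rank 228 in Cis-sEV and rank 154 in Ctrl-sEV, mmu-miR-10b-5p ranks 285 and 169, mmu-miR-196a-5p ranks 389 and 192, and mmu-miR-196b-5p ranks 461 and 323. The order of the 4 guide arms was the same in both groups, but neighbours in that order did not differ beyond their spread between libraries, with the exception of mmu-miR-10b-5p and mmu-miR-196a-5p in Cis-sEV.

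**Figure D1:**
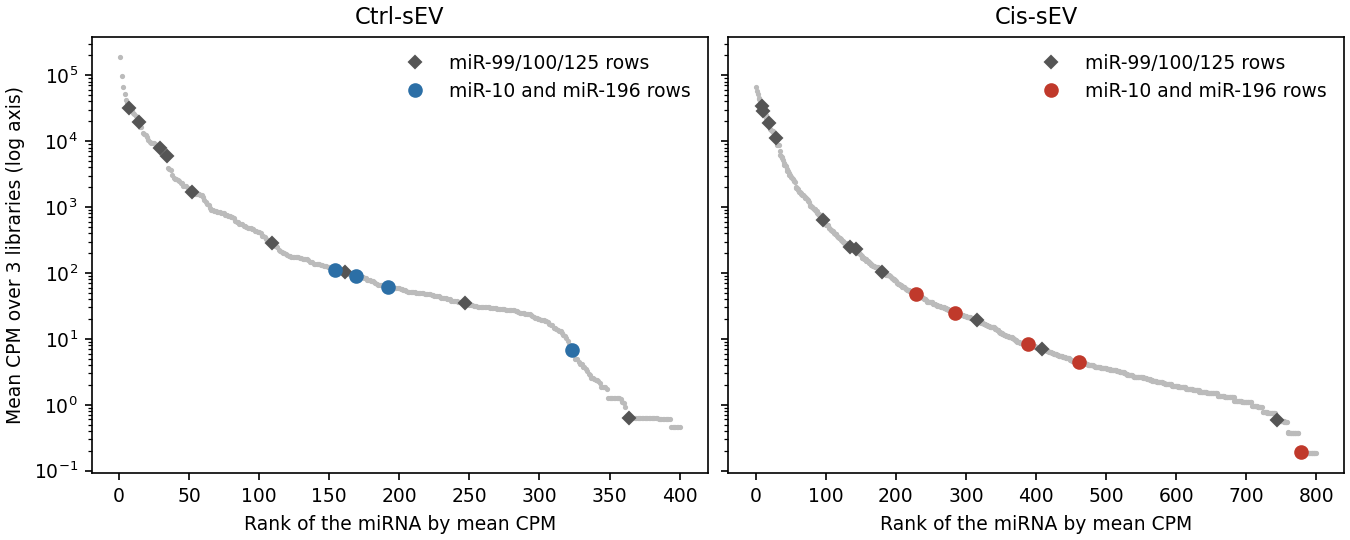
Mean CPM over 3 libraries (log axis) against the rank of each miRNA with reads in the group, Ctrl-sEV left and Cis-sEV right. Coloured circles are the miR-10 and miR-196 rows, grey diamonds are the miR-99, miR-100 and miR-125 rows, and small grey points are all other miRNAs. The Hox-cluster rows lie at rank 154 or lower in abundance in both groups, while mmu-miR-99b-5p holds ranks 7 and 11.

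None of the Hox-cluster miRNAs was called different between Cis-sEV and Ctrl-sEV. Of the 5 rows, 3 had enough reads to be tested by edgeR's quasi-likelihood test, namely mmu-miR-10a-5p, mmu-miR-10b-5p and mmu-miR-196a-5p. Calls needed a log2 fold change of 1 or more in either direction, together with a Benjamini-Hochberg adjusted p no larger than 0.05. With these limits 0 of the 3 were called, where 30% of the 353 tested miRNAs were called, 23.5% as higher and 6.52% as lower in Cis-sEV. At an unadjusted p under 0.05 there were also 0 of the 3, beside 147 of the 353 tested miRNAs. DESeq2 gave a p for all 5 rows but no adjusted p for mmu-miR-10a-3p, which it therefore could not call. It called 0 of the 5, beside 109 of 784 miRNAs, and 2 of the 5 had an unadjusted p under 0.05. With limma-voom 0 of the 3 were called, beside 43 of 353 miRNAs. All 3 edgeR fold changes were below 0, with a median of -2.26, beside a median of 0.44 over all tested miRNAs. mmu-miR-196a-5p reached the cutoff of the filter on low counts in every Ctrl-sEV library, but in Cis-sEV only in replicate 3. It thus entered the test through the group where it was higher, so its sign adds no support. With 3 rows this is a description of them and not a test of the families.

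mmu-miR-10a-5p, the guide arm of the HoxB gene Mir10a, was counted 37, 68 and 150 times in Cis-sEV replicates 1 to 3 and 78, 38 and 74 times in Ctrl-sEV replicates 1 to 3, and later values follow this order. In CPM these were 20.7, 39.5 and 83.6 in Cis-sEV and 144.5, 52.9 and 139.9 in Ctrl-sEV, with means of 47.9 ± 32.3 and 112 ± 51.6 (SD, n = 3). Cis-sEV replicate 3 lay above Ctrl-sEV replicate 2, so the groups overlapped, although the other Cis-sEV libraries lay below all of Ctrl-sEV. The 95% counting interval (Clopper-Pearson) of replicate 1 ran from 14.5 to 28.5 CPM for Cis-sEV and from 114 to 180 CPM for Ctrl-sEV. The log2 fold change of Cis-sEV against Ctrl-sEV was -1.65 (standard error 1.11, 95% interval -4.29 to 0.99, adjusted p = 0.351 from edgeR). The interval holds 0 as well as large falls, so neither a fall nor the absence of one was shown.

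mmu-miR-10b-5p, the guide arm of the HoxD gene Mir10b, had 38, 23 and 71 reads in Cis-sEV and 32, 13 and 104 reads in Ctrl-sEV. Its levels were 21.2, 13.3 and 39.6 CPM in Cis-sEV (24.7 ± 13.5, SD, n = 3) and 59.3, 18.1 and 196.6 CPM in Ctrl-sEV (91.3 ± 93.5, SD, n = 3). The Ctrl-sEV libraries spanned 10.9-fold among themselves and enclosed 2 of the 3 Cis-sEV libraries, and Ctrl-sEV replicate 3 held 69.8% of the reads of its group. The log2 fold change was -2.26 (standard error 1.33, 95% interval -5.41 to 0.90, adjusted p = 0.275 from edgeR), and it was -0.96 (adjusted p = 0.432) without Ctrl-sEV replicate 3.

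mmu-miR-196a-5p had 12, 12 and 20 reads in Cis-sEV and 5, 6 and 88 reads in Ctrl-sEV. The Cis-sEV libraries were close to each other at 6.70, 6.97 and 11.1 CPM (8.27 ± 2.49, SD, n = 3). In Ctrl-sEV the levels were 9.26, 8.35 and 166 CPM (61.3 ± 91.0, SD, n = 3), so that 1 library stood 19.9-fold above the lowest. Ctrl-sEV replicate 3 held 88.9% of the reads of its group, and the other Ctrl-sEV libraries lay within the range of Cis-sEV in CPM. With CPM scaled by TMM, the library scaling of the edgeR fit, Ctrl-sEV replicate 1 stood at 12.2, above the highest Cis-sEV library at 9.46. The log2 fold change was -3.19 (standard error 1.56, 95% interval -6.89 to 0.50, adjusted p = 0.181 from edgeR). Without Ctrl-sEV replicate 3 it was -0.37 (adjusted p = 0.675), so the size of this difference rests on that library. Without Ctrl-sEV replicate 1 or 2 it was -3.80 and -3.76, still not called, at adjusted p = 0.0768 and 0.0742.

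mmu-miR-196b-5p, which the HoxA gene Mir196b encodes, had 3, 19 and 1 reads in Cis-sEV and 5, 4 and 3 reads in Ctrl-sEV. This came to 1.67, 11 and 0.557 CPM in Cis-sEV (4.42 ± 5.75, SD, n = 3) and 9.26, 5.57 and 5.67 CPM in Ctrl-sEV (6.83 ± 2.10, SD, n = 3). In CPM both the highest and the lowest libraries were of Cis-sEV, and Cis-sEV replicate 2 held 82.6% of the reads of its group. With CPM scaled by TMM the highest was Ctrl-sEV replicate 1, at 12.2 against 10.1 in Cis-sEV replicate 2. The filter on low counts left it out of the main test. With no filter edgeR gave -1.06 as its log2 fold change, with a standard error of 1.28 and an adjusted p = 0.553, and a difference was not detectable at this depth.

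**Figure D2:**
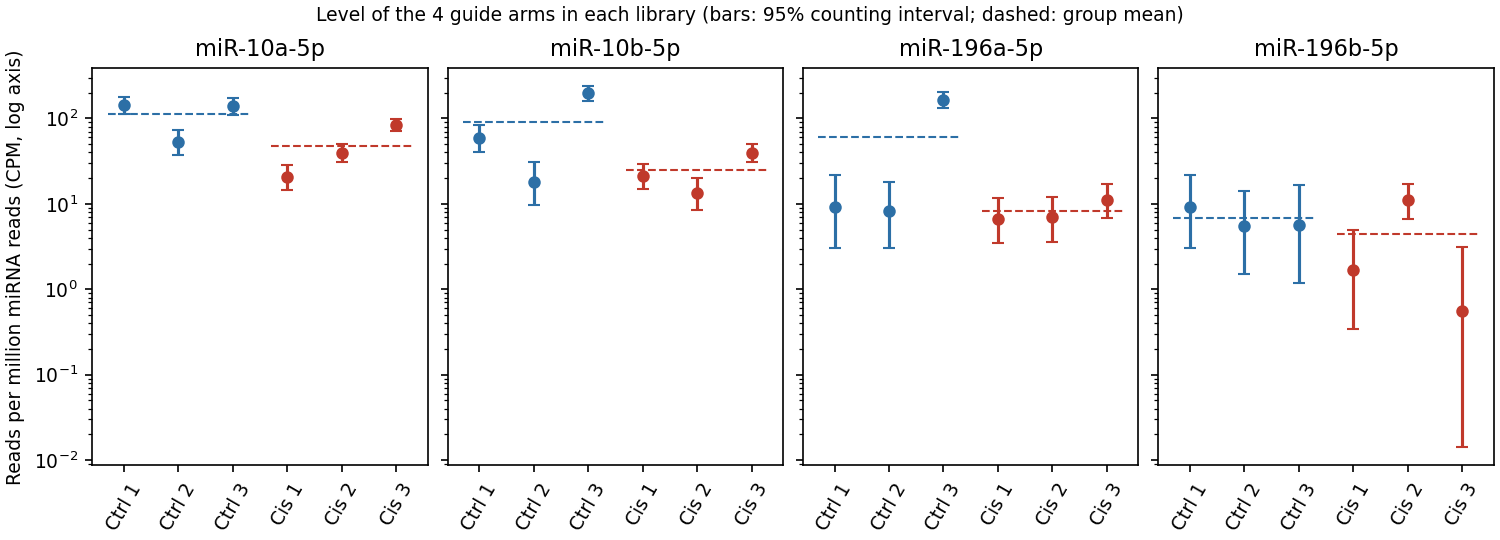
CPM (log axis) of the 4 guide arms in each library, Ctrl-sEV in blue and Cis-sEV in red, with 95% Clopper-Pearson counting intervals as bars and group means as dashed lines. Every panel shows overlapping groups, and Ctrl-sEV replicate 3 stands at 196.6 CPM for mmu-miR-10b-5p and at 166 CPM for mmu-miR-196a-5p. mmu-miR-10a-3p, with 1 read in all, is not drawn.

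Ctrl-sEV replicate 3 was the highest of the 6 libraries for mmu-miR-10b-5p and mmu-miR-196a-5p but not for mmu-miR-10a-5p or mmu-miR-196b-5p. In the same library the summed level of the 6 mesenchymal markers (miR-199, miR-214, miR-143 and miR-145 arms) was 5552 CPM, against 3420 and 3699 CPM in the other Ctrl-sEV libraries and 9838 to 11210 CPM in Cis-sEV. The 4 erythrocyte and serum markers, miR-451a, miR-144 and the miR-486 arms, summed to 1639 CPM there, against 2990 and 3604 CPM in the other Ctrl-sEV libraries and 1158 to 1337 CPM in Cis-sEV. mmu-miR-144-3p had 0 reads in all of Ctrl-sEV. mmu-miR-125a-3p, the passenger arm of a miR-10 relative, had all 55 of its Ctrl-sEV reads in replicate 3. Reads in a single Ctrl-sEV library were not particular to replicate 3. In CPM scaled by TMM, mmu-miR-379-3p stood at 293, 0 and 0 in Ctrl-sEV, and mmu-miR-500-3p at 0, 185 and 0. Both endothelial markers, the arms of miR-126a, summed to 14590 to 18600 CPM in Ctrl-sEV and 6915 to 9947 CPM in Cis-sEV. Nearly all of that sum was mmu-miR-126a-3p, which was called lower, while mmu-miR-126a-5p had a log2 fold change of 4.17 (edgeR adjusted p = 0.0759) and lay higher in every Cis-sEV library than in any Ctrl-sEV library. In CPM scaled by TMM, mmu-miR-126a-5p stood at 0, 0 and 6.20 in Ctrl-sEV, at or near the limit of detection, so the size of this fold is uncertain. The 6 epithelial markers summed to 23460 to 31980 CPM in Ctrl-sEV and 46640 to 49730 CPM in Cis-sEV. The neuronal pair summed to 937 to 1376 CPM and 1593 to 1677 CPM, with mmu-miR-124-3p at 0 in Ctrl-sEV. The leukocyte markers in the table, 2 of 4, summed to 244 to 561 CPM and 260 to 362 CPM. The skeletal muscle markers, 2 of 3, were at 0 to 2.78 CPM in Ctrl-sEV, with mmu-miR-206-3p at 0, and at 47.5 to 62.4 CPM in Cis-sEV. These sums are CPM without TMM scaling. Called higher by edgeR were 1 of 3 hair cell, 2 of 6 epithelial, 1 of 2 neuronal and 2 of 2 tested skeletal muscle markers. The hair cell markers did not move alike. mmu-miR-96-5p was called higher (log2 fold change 2.08), while mmu-miR-182-5p had 0.18 and mmu-miR-183-5p had -0.49. Called lower were 2 of 3 tested erythrocyte and serum markers and 1 of 2 endothelial markers, and 0 mesenchymal or leukocyte markers were called. Over all tested miRNAs these shares were 23.5% and 6.52%. mmu-miR-429-3p, most of the epithelial sum, had a log2 fold change of 0.34 (edgeR adjusted p = 0.1005). The part of these marker levels in the values of the Hox-cluster miRNAs was not tested, and in pooled vesicles fewer cells of a type and less RNA per cell cannot be told apart.

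**Figure D3:**
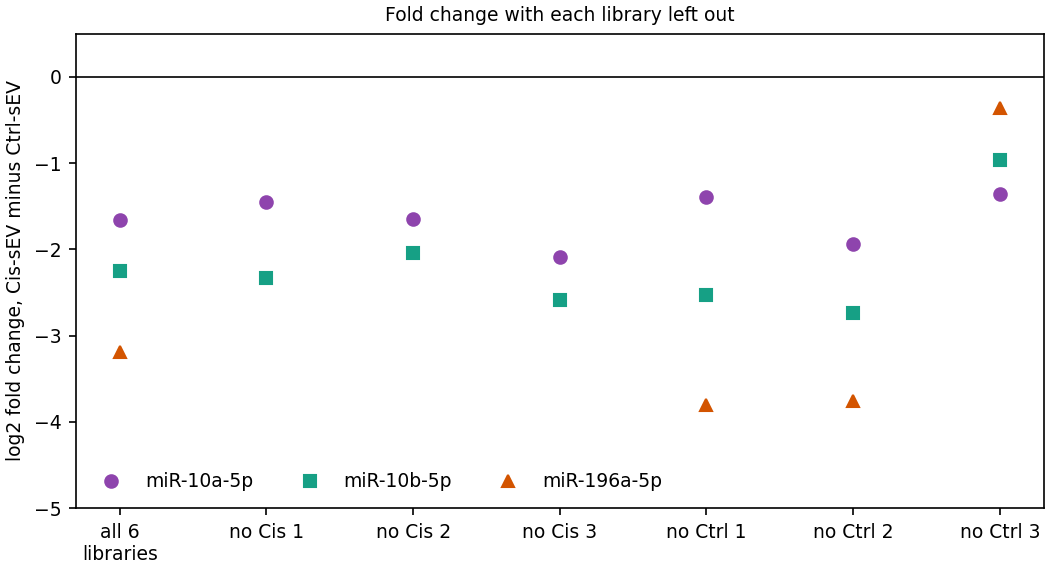
log2 fold change of Cis-sEV against Ctrl-sEV for the 3 tested guide arms with all 6 libraries and with each library left out. mmu-miR-196a-5p moves from -3.19 to -0.37 and mmu-miR-10b-5p from -2.26 to -0.96 without Ctrl-sEV replicate 3, while mmu-miR-10a-5p stays between -2.09 and -1.36. mmu-miR-196a-5p did not pass the filter on low counts, whose cutoff depends on library size, without any 1 of the Cis-sEV libraries.

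Within the miR-10 pair, the balance of the HoxB and HoxD products did not differ detectably between the groups. The share of mmu-miR-10a-5p among the reads of mmu-miR-10a-5p and mmu-miR-10b-5p needs no scaling between libraries. It was 49.3%, 74.7% and 67.9% in Cis-sEV and 70.9%, 74.5% and 41.6% in Ctrl-sEV, with means of 64.0 ± 13.1% and 62.3 ± 18.1% (SD, n = 3). The difference of 1.65 percentage points was smaller than the spread within either group (two-sided exact permutation test, p = 0.8, where 3 libraries against 3 cannot go below 0.1). It ran from -8.73 without Ctrl-sEV replicate 3 to 8.97 without Cis-sEV replicate 1, so its direction was not fixed. mmu-miR-10a-5p made up more of the pair in 4 of the 6 libraries. The exceptions were Cis-sEV replicate 1, with a 95% Wilson interval of 38.3 to 60.4%, and Ctrl-sEV replicate 3, with 34.6 to 48.9%. When the reads of the pair were summed to 1 row, edgeR gave a log2 fold change of -1.89 with a standard error of 0.95 and an adjusted p = 0.195, again not called.

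Within the miR-196 pair, mmu-miR-196a-5p took 80.0%, 38.7% and 95.2% of the reads of mmu-miR-196a-5p and mmu-miR-196b-5p in Cis-sEV and 50.0%, 60% and 96.7% in Ctrl-sEV. These shares rest on 10 to 91 reads per library. The Wilson interval of Cis-sEV replicate 2, 23.7 to 56.2%, did not meet that of Cis-sEV replicate 3, 77.3 to 99.2%, so libraries of one group differed by more than counting error.

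Passenger arms of these hairpins were nearly absent. mmu-miR-10a-3p, the passenger arm of Mir10a, had 1 read in Cis-sEV replicate 2 and 0 in every other library. That read was 1.45% of the 69 reads of both arms there (95% Wilson interval 0.256 to 7.76%). In the libraries with 0 reads, a count of 0 allows a share of up to 2.00% in Cis-sEV replicate 3, the deepest for this hairpin, and of up to 8.11% in Cis-sEV replicate 1. With 1 read in all, the arm share allowed no comparison of the groups. The table held no row for the 3p arms of Mir10b, Mir196a-1, Mir196a-2 or Mir196b.

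mmu-miR-615-3p, from a miRNA gene in the HoxC cluster, was as scarce, with 0, 0 and 1 reads in Cis-sEV and 2, 0 and 2 reads in Ctrl-sEV. Too few reads were counted for a test, and all 6 libraries were below the level that 3 reads mark.

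The relatives of miR-10 that lie outside the Hox clusters included some of the most abundant miRNAs of these vesicles. They are miR-99, miR-100 and miR-125, and 11 rows of the table belonged to them. Together they took between 9.35 and 9.47% of each Cis-sEV library and between 6.36 and 7.44% of each Ctrl-sEV library. mmu-miR-99b-5p, the highest of them in the mean over all 6 libraries, averaged 29110 ± 401 CPM under cisplatin and 32280 ± 1889 CPM under PBS (SD, n = 3). mmu-miR-99a-5p stood at 33890 ± 1026 and 19350 ± 1904 CPM (SD, n = 3). For each read of mmu-miR-10a-5p mmu-miR-99a-5p had 1637, 885 and 394 reads in Cis-sEV and 138, 396 and 123 reads in Ctrl-sEV. The Cis-sEV library with the fewest, 394, lay just below the Ctrl-sEV library with the most, 396. Whether any reads of such abundant near-relatives were counted on the miR-10 rows was not tested, since only counts per miRNA were analysed here.

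Of the 9 relatives with enough reads, 2 were called higher in Cis-sEV and 1 was called lower, beside the 23.5% and 6.52% of all tested miRNAs. The median log2 fold change was 0.53, beside 0.44 over all tested miRNAs. Those called higher, mmu-miR-100-3p and mmu-miR-125b-2-3p, had 0 reads in every Ctrl-sEV library, so their fold is only a lower bound; the median was also 0.53 with both at that bound, taking 3 reads over the Ctrl-sEV group. The 1 called lower was mmu-miR-125a-5p, whose log2 fold change was -1.70 ± 0.38 (standard error; edgeR adjusted p = 0.0140). mmu-miR-99a-5p had 0.45 (standard error 0.16, adjusted p = 0.0710) and mmu-miR-99b-5p had -0.51 (standard error 0.15, adjusted p = 0.0349), the latter past the limit on p but not the limit on fold. The standard errors of mmu-miR-10a-5p, mmu-miR-10b-5p and mmu-miR-196a-5p, 1.11 to 1.56, were larger than the 0.15 to 0.38 of these 3 relatives, which are more abundant. Among less abundant relatives with reads in both groups, the standard error was 0.62 for mmu-miR-125b-1-3p and 1.25 for mmu-miR-99b-3p. All Cis-sEV libraries lay below all Ctrl-sEV libraries, in CPM scaled by TMM, for 3 of the 9 relatives and for 0 of the 3 tested Hox-cluster arms, where 12.5% of all tested miRNAs did. The reverse, all Cis-sEV libraries above all Ctrl-sEV libraries, held for the other 6 relatives, for 0 of the 3 Hox-cluster arms and for 37.7% of all tested miRNAs.

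**Figure D4:**
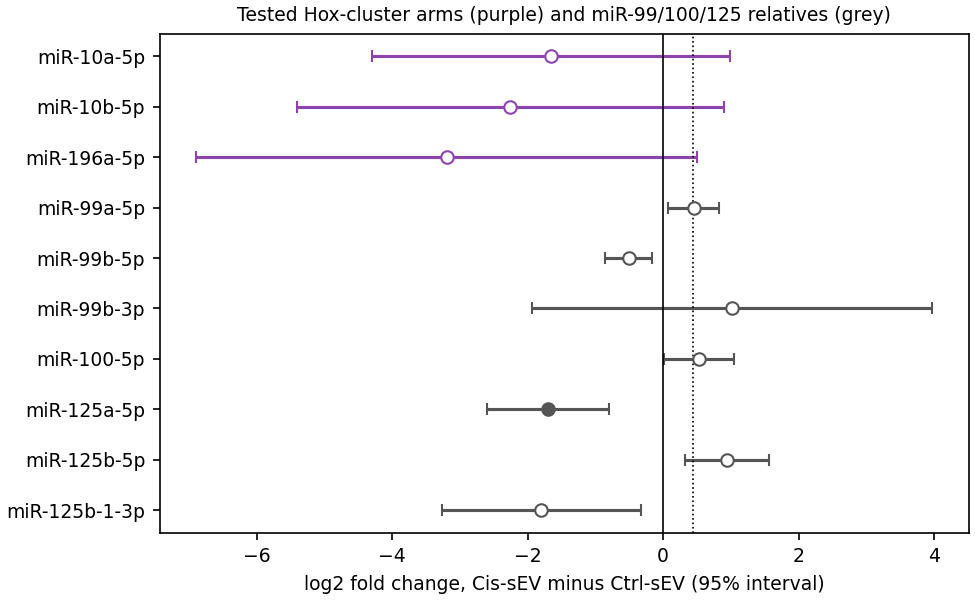
log2 fold change of Cis-sEV against Ctrl-sEV with a 95% interval derived from the edgeR fit, for the 3 tested Hox-cluster arms in purple and the 7 relatives with reads in both groups in grey. Filled points were called, the solid line marks 0 and the dotted line the median of 0.44 over all tested miRNAs. The intervals of the Hox-cluster arms all hold 0 and are wider than those of the abundant relatives.

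The miRNAs whose pattern over the 6 libraries was nearest to each tested arm were found by the root mean square distance of log2(CPM + 1), with CPM scaled by TMM and centred on the mean over libraries. Candidates were the tested miRNAs within 2 log2 units of the arm in mean level. For mmu-miR-10a-5p the nearest 3 of 117 candidates were mmu-miR-125b-1-3p (distance 0.74 log2 units), mmu-miR-541-5p (0.80) and mmu-miR-485-5p (0.84). For mmu-miR-10b-5p, with 139 candidates, they were a predicted miRNA without a miRBase name (1.14), mmu-miR-378c (1.23) and mmu-miR-129-5p (1.26). For mmu-miR-196a-5p, with 190 candidates, they were mmu-miR-378c (1.29), mmu-miR-7b-5p (1.38) and the same predicted miRNA (1.45). Of these 9 places, 2 were held by the same miRNAs with a pseudocount of 10, so the neighbours of such low counts are a loose description.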

How the data were processed

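RNA in the size range of miRNAs was isolated on a gel and read on a DNBSEQ instrument. The authors mapped the filtered reads with Bowtie2 (genome GRCm38.p6), assigned small RNA classes with AASRA and cmsearch, and deposited whole-number read counts per mature miRNA and library without normalization. Deposited lengths of mature sequences, in the authors' table, and the authors' group averages entered no test; other columns of the table hold names, chromosomes and sequences. Tool versions were not given in the sources used here. How reads matching several miRNAs were assigned was also not stated.

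Counts of the 810 miRNAs were tested with edgeR 4.0.16 (quasi-likelihood, TMM, low counts removed by filterByExpr at min.count 10 and min.total.count 15) in R 4.3.3, with group as the only term and Benjamini-Hochberg adjustment over 353 tested miRNAs. TMM factors spanned 1.10 to 1.18 for Cis-sEV libraries and 0.762 to 0.997 for Ctrl-sEV libraries. The study's own MA-plot test was not repeated. Alternatives were other scalings, no filter, DESeq2 1.42.0, limma-voom (limma 3.58.1), a replicate block, no limit on fold, miRBase names only, the miR-10 pair summed, and each library left out. Shares used Wilson intervals and exact permutation tests (scipy 1.17.1), and figures matplotlib 3.10.9. The fits were tested on simulated data with the same spread between libraries for every miRNA. This cannot show how the fits behave for rows as variable as these. Labels call the libraries separate samples, and the study calls them biological replicates. Chi-square per degree of freedom between libraries of a group was 66.3 to 115, so none was a copy of another.

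The families, the comparison lists, the markers and the naming rule were chosen with earlier results of these data known. The rule named all members, miR-615 arms, the highest 2 relatives and the nearest 3 miRNAs of each tested 5p arm. Named after their values were seen were mmu-miR-99b-3p, mmu-miR-100-5p, mmu-miR-100-3p, mmu-miR-125a-5p, mmu-miR-125a-3p, mmu-miR-125b-2-3p, mmu-miR-379-3p, mmu-miR-500-3p and the markers named singly.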

Additional observations from a re-analysis of the deposited data

How the results depend on the processing

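In every alternative run, 0 Hox-cluster miRNAs were called. All 46 alternative log2 fold changes of the 3 tested arms were below 0, from -3.80 to -0.37, with adjusted p between 0.0585 and 0.745. They ran from -2.09 to -1.23 for mmu-miR-10a-5p, from -2.74 to -0.96 for mmu-miR-10b-5p and from -3.80 to -0.37 for mmu-miR-196a-5p. The run with no limit on fold repeats the main fold changes, and all runs reuse the same 6 libraries, so these values are not independent of each other. Runs that kept the main filter and all libraries tested mmu-miR-196a-5p because of its Ctrl-sEV levels. Runs without any 1 of the Cis-sEV libraries gave no value for mmu-miR-196a-5p. The number of all miRNAs called was 106, and it moved to 43 with limma-voom, to 24 with the replicate block and to between 53 and 169 with 1 library left out (53, 57 and 70 without Cis-sEV replicates 1, 2 and 3, and 169 without Ctrl-sEV replicate 3). With total miRNA reads in place of TMM the split was 97 higher and 11 lower instead of 83 and 23, and the median log2 fold change of all tested miRNAs was 0.79 instead of 0.44. With the replicate block the log2 fold changes were -1.63 for mmu-miR-10a-5p, -1.78 for mmu-miR-10b-5p and -1.79 for mmu-miR-196a-5p, which was -1.96 with limma-voom. Deviations from the group mean had correlations across miRNAs of -0.176 to -0.0147 between libraries with the same number, against -0.119 to 0.164 for other numbers. With 3 libraries per group these values cannot decide whether libraries with the same number were prepared together. The difference in the share of miRNA reads was -0.0186 percentage points, and -0.0536 with the 10 most abundant other miRNAs taken out of the total, which makes the total smaller. Depth limits mmu-miR-10a-3p, with 1 read in all, and mmu-miR-196b-5p, with 1 to 19 reads per library. Smallest exact permutation p-values in this design are 0.1.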
